A study of Mus musculus with 20 samples.

Results

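The regions described here are stretches of open chromatin at the ends of protein-coding genes that were called in every library of a study of brain endothelial cells. Accessible DNA, tagged by the transposase Tn5 in the ATAC-seq assay, was sequenced from brain endothelium of wild-type mice (strain C57BL/6) after enrichment by cell sorting. Each library is labelled with the age and sex of its own animal, and the labels say nothing of pooling, so p-values measure the spread between these libraries. The series addresses changes of accessible chromatin in these cells with age. There were 20 libraries in 4 age groups: 4 of 2 months, 5 of 6 months, 5 of 12 months and 6 of 18 months, from 8 males and 12 females. All animals carried the same genotype and the labels name no treatment, so age and sex are the only labelled differences. Peaks overlapping by at least 1 bp were merged over all 20 deposited lists on chromosomes 1 to 19 and X, which gave 53626 regions. Members had a peak in all 20 libraries, a merged width below 2000 bp and lay no more than 1000 bp from the start or the 3' end of a gene that codes for protein. They were thus chosen by the peak calls of all 20 libraries. There were 6799 members, 12.7% of all regions and 53.5% of the 12717 regions that were open in every library.

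Because the rule uses the calls themselves, being open in all libraries is a description and not a finding, and a region that lost its peak in any animal could not be a member. Near the edges of the rule, Ado and Ptgfrn lay inside with peaks in 20 libraries, while Rps13 and Top2a lay outside with peaks in 19. In all, 734 regions met the other criteria with peaks in 19 libraries. Members just under the width limit stood at Ier5 (1998 bp) and Tnrc6c (1995 bp), and regions just over it at Zfp367 (2003 bp) and Cep170 (2004 bp). By distance, Notch3 was inside at 997 bp, and Fbxo7 and Maff were outside at 1002 and 1003 bp.

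Open chromatin at a gene end is mostly the promoter, the nucleosome-depleted stretch where the basal machinery and RNA polymerase II assemble. Promoters of broadly expressed genes usually lie in CpG islands, GC-rich stretches rich in unmethylated CpG dinucleotides, and carry sites for general activators such as SP and KLF factors, ETS factors, NRF1 and NF-Y. Such promoters are accessible in most cell types, while enhancers away from genes differ more between cell types. In brain endothelium the same class of element also serves the genes of the blood-brain barrier, the layer of tight junctions and transporters that separates blood from neural tissue.

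The sequences below show what such a promoter looks like in genes on which the results turn. They are the 150 bases before the annotated start, 5′ to 3′ in the direction of the gene, from RefSeq on GRCm38.p6, the build that mm10 names. Capitals mark matches on either strand to the 13 short motifs searched. The first set holds promoters of brain endothelial and barrier genes: Cldn5 is the main claudin of endothelial tight junctions, Slc2a1 the barrier glucose transporter, Mfsd2a a lipid transporter that restrains transcytosis, and Kdr the main receptor of VEGF.
Cldn5 (chr16:18776697-18776846, + strand): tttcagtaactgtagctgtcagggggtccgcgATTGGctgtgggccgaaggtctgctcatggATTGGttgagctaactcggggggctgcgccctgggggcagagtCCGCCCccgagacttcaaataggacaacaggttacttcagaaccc
Slc2a1 (chr4:119108595-119108744, + strand): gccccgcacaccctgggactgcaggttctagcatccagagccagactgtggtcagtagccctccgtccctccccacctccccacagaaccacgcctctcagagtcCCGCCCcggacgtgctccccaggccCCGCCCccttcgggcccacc
Mfsd2a (chr4:122961189-122961338, - strand): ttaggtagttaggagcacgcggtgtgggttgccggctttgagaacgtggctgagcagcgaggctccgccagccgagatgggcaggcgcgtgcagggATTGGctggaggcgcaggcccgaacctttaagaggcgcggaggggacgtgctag
Kdr (chr5:75978456-75978605, - strand): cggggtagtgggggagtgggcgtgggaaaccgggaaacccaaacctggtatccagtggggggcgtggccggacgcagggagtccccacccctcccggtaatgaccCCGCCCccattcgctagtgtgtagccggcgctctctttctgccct
Cldn5 and Mfsd2a held CCAAT boxes in this stretch, and Cldn5, Slc2a1 and Kdr held GC boxes. GC content was 58.7% at Cldn5 and 70.7% at Slc2a1, with 7 and 8 CpG dinucleotides.

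The second set holds a promoter of the proteasome, whose subunit Psma1 is used in all cells, and 3 promoters whose height ranked higher with age: Rpl26 encodes a cytosolic ribosomal protein, Klhl20 an adaptor of a cullin ubiquitin ligase, and H2-Q7 a non-classical class I histocompatibility molecule.
Psma1 (chr7:114276117-114276266, - strand): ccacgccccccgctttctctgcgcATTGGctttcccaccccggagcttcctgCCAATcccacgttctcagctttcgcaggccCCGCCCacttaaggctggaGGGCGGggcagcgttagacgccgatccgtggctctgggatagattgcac
Rpl26 (chr11:68901416-68901565, + strand): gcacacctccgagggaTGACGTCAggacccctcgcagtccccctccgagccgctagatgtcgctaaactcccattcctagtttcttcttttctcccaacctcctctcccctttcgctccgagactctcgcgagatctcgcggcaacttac
Klhl20 (chr1:161131480-161131629, - strand): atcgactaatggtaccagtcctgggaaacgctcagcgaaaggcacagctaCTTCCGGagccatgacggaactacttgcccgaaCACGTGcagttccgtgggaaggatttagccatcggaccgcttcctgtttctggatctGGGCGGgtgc
H2-Q7 (chr17:35439005-35439154, + strand): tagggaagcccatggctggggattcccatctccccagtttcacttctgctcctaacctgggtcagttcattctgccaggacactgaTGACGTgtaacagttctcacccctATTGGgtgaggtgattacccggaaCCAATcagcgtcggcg
Psma1 held CCAAT and GC boxes, and Klhl20 an ETS site, an E-box and a GC box. Rpl26 held the CRE core on both strands, where the overlapping matches form a palindrome. H2-Q7 held a CRE core and 2 CCAAT boxes, in letters that near-identical class I genes may share.

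The third set holds promoters of Kdm5c and Eif2s3x, an X-linked histone demethylase and an X-linked subunit of a translation initiation factor, both known to escape X inactivation.
Kdm5c (chrX:152233077-152233226, + strand): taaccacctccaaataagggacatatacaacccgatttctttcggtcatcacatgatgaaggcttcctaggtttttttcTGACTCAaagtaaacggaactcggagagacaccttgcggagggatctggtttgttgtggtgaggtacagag
Eif2s3x (chrX:94212652-94212801, - strand): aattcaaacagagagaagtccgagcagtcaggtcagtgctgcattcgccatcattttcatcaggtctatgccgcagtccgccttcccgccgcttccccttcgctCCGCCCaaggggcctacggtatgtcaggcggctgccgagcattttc
Kdm5c held an AP-1 site and Eif2s3x a GC box. The median summits of these members lay at -345.5 and -278.5 bp from the start, outside the stretch printed, while at Cldn5 the summit lay at -64 bp and at Psma1 at -30.5 bp.

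Most members lay at gene starts, although the rule accepts both ends. A member with any annotated start within the distance set by the rule was counted as a start, whichever end was nearest. This held for 5486 members (80.7%). A 3' end was counted only where no such start was found, at 143 members (2.1%). At 1170 the strand was not in the sequence table. Without these 1170, 97.5% of the remaining 5629 were counted as starts, a share that this order of counting favours. A start lay inside 5234 members, and 609 of these (11.6%) held starts on both strands, as at bidirectional promoters. Of the 6799 members, 1270 lay at the ends of 2 genes and 37 at the ends of 3 or more, so a member named for a gene can equally serve a neighbour. The peak summit, the point of most insertions, had a median position of -50.5 bp from the nearest start over the 20 libraries' median summits (quartiles -96 and -7.5 bp, n = 5234 members). It lay upstream at 77.9% of members, within 100 bp at 68.6% and within 250 bp at 89.4%. The 4625 members with starts on 1 strand had a median of -52.5 bp. The SD of the summit position over libraries had a median of 37.1 bp (quartiles 19.5 and 80.4 bp), beside 39.5 bp (23.6 and 68.6 bp) at always-open regions inside genes and 42.4 bp (26.4 and 68.8 bp) at those between genes. It was under 50 bp at 61.7% of members, 62.2% of regions inside genes and 60.2% of those between genes.

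**Figure D1:**
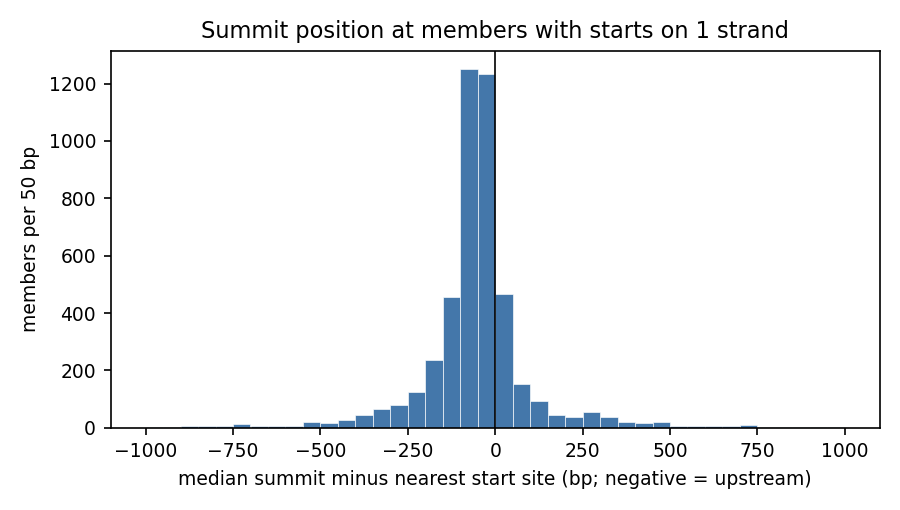
Histogram of the median summit position relative to the nearest annotated start, in bins of 50 bp, for the 4625 members with starts on 1 strand; the x axis is in bp with negative values upstream and the y axis counts members. Summits pile up just upstream of the start, with a median of -52.5 bp.

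Merged widths had quartiles of 898, 1077 and 1309 bp, and the bases covered by peaks in a library had medians from 502 to 908 bp. Between 5.38% and 12.1% of members held several peaks in a library. The corresponding median widths were 982 bp at always-open regions inside genes and 964 bp between genes. Members were spread over all chromosomes, with 24.7 to 38.5 per 100 protein-coding genes on autosomes and 15.7 on X, where 152 members lay.

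Start windows inside members were CpG-rich. Windows ran from 250 bases before to 50 bases after a start. The median GC content was 62.7% in 6603 windows inside members and 60.0% in 2915 inside regions called in some libraries. Such regions had no limit on distance to a gene end here. In the 10634 windows outside any region the median was 50.0%. The ratio of observed to expected CpG had medians of 0.825, 0.702 and 0.254 in the same order, and 84.8%, 64.4% and 18.5% of windows had a ratio of at least 0.6. Over all 21045 windows of protein-coding genes these values were 56.7%, 0.574 and 48.1%. The windows of a gene with several starts overlap, and neighbouring windows are not independent, so these are descriptions.

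Of the 13 motifs searched on both strands, 8 were more common in member windows than in all windows. The GC box bound by SP and KLF factors (GGGCGG) was in 72.9% of member windows and 46.7% of all windows. The ETS site (CCGGAAG) was in 22.5% and 11.7%, the CRE core bound by CREB and ATF factors (TGACGT) in 14.2% and 8.58%, and the NRF1 core (GCATGCG) in 8.04% and 4.48%. Smaller differences were found for the E-box (CACGTG, 10.9% and 7.91%), the YY1 site (AAGATGG, 7.94% and 6.28%) and the ZNF143 core (ACTACAA, 5.15% and 3.64%). All windows include those of members. Windows inside regions called in some libraries held the GC box at 60.8%, the ETS site at 16.6% and the CRE core at 8.89%. There the NRF1 core was in 4.7%, the YY1 site in 6.66% and the ZNF143 core in 2.98%. The E-box, at 10.4% there, was nearly as common as in members. The other 5 were less common in member windows than in all windows. The TATA box (TATAAA) was in 5.18% and 12.7%, the GATA site (AGATAA) in 4.62% and 9.68%, the SOX site (AACAAT) in 5.09% and 8.91%, the AP-1 site (TGACTCA) in 2.71% and 4.69%, and the FOX site (GTAAACA) in 2.42% and 3.03%. In regions called in some libraries the TATA box was in 7.27%, the GATA site in 7.0% and the SOX site in 5.87%. The AP-1 site was in 3.95% there and the FOX site in 2.78%. Matches may overlap each other, as at the palindromic E-box, and were not corrected for base composition. A match is a run of letters and no evidence of a bound factor.

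The CCAAT box bound by NF-Y (CCAAT) was in 42.1% of member windows and 38.5% of all windows. In regions called in some libraries it was in 31.8% of windows. Members as a class thus carried little more of the box than all windows did. Among member windows its share was larger at higher peaks: 30.5%, 36.6%, 42.4% and 56.6% from the lowest to the highest of 4 equal classes of members by summit pileup. These shares and medians count windows, so a member with several starts enters more than once and can stand on both sides. Windows with the box had a median pileup percentile of 63.7, and those without it 47.6. By fold the medians were 72.0 and 54.8. The share with a ZNF143 core was also larger at higher peaks, from 3.76% in the lowest class to 7.02% in the highest (median pileup percentiles of 63.8 with it and 53.5 without). For the GC box it went from 67.9% to 78.4% (55.7 with it and 47.9 without). At the ETS site the measures differed: the medians by pileup were 50.6 with the site and 54.7 without it, and by fold 67.7 and 60.2.

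Height was compared within each library as a percentile, the place of a region among the 12717 always-open regions of that library from lowest to highest. It was computed on the authors' fold, which divides the summit's pileup by the background around it, and again on the summit pileup itself, a whole number of fragments recovered from the fold and the -log10 p. Members stood above other always-open regions by fold. Their median fold percentile ran from 55.0 to 61.8 over the 20 libraries, against 36.1 to 42.0 for the 3201 regions inside genes and 38.5 to 49.3 for the 2582 between genes. The ranges did not overlap. By pileup, members ran from 47.9 to 58.4 and regions inside genes from 41.5 to 52.3, so these ranges overlapped. Members made up 70.8% to 80.7% of the 1000 highest regions by fold and 49.4% to 68.9% by pileup, where they are 53.5% of the regions ranked. The 135 always-open gene ends of 2000 bp or wider had median fold percentiles of 14.8 to 47.3 and pileup percentiles of 69.6 to 81.4.

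The highest members by fold were Gm32584, Golph3l, Sel1l, Gm6712 and Bcat2, with median percentiles from 99.7 to 99.9. Sel1l, an adaptor of the degradation of misfolded proteins at the endoplasmic reticulum, was at 99.8 ± 0.45 (median and SD over 20 libraries). Gm32584, whose region lies at a 3' end, and Gm6712 are predicted genes whose reads may be shared with near-identical copies. The lowest by fold were Klf13, Cfl1, Map7d1, Bsg and Midn, with medians between the lowest and the first percentile. These were not weak peaks: Bsg, which encodes the basigin glycoprotein of barrier endothelium, had a median pileup percentile of 86.4, and Klf13 68.9. Their local background was 5.23 to 8.33 times the library's own background level. By pileup the highest members were Leprot, Cic, Khsrp, G3bp1 and Rras, all above 99.9. The largest spread of fold percentile between libraries was at Ndufaf6, Dusp12, Eya3, Srp68 and Slc27a4, with SDs from 29.6 to 30.8 and a local background ratio of 1.00 at each. At that ratio the background sits at the library's own level. Their pileups were low in some libraries: the pileup percentile ran from 0.409 to 47.3 at Ndufaf6 and from 2.48 to 56.1 at Srp68.

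Always-open gene ends served both housekeeping genes and genes of brain endothelium. Of 21631 protein-coding genes, 7809 (36.1%) had a member at an end, 3881 (17.9%) had only a region called in some libraries, 9794 (45.3%) had none and 147 had only a wide one. Members were found at 23 of 30 brain endothelial genes, 19 of 25 barrier transporters, 23 of 27 proteasome subunits, 20 of 25 splicing factors, 20 of 25 DNA repair genes and 17 of 20 immediate early transcription factors. The shares were lower for junction genes (10 of 20) and basement membrane genes (9 of 20). Wnt genes, which induce and keep up the barrier, had 12 of 20. Markers of other brain cells served as a check of the sorted cell type: 1 of 14 for pericytes and smooth muscle (Notch3), 2 of 12 for astrocytes (Gja1, and Aldoc by a region that is the start of its neighbour Pigs), 2 of 12 for neurons (Stmn2 and Nrgn), 0 of 12 for oligodendrocytes, 1 of 14 for microglia and leukocytes, and 1 of 12 for fibroblasts (Foxc1). All 12 oligodendrocyte markers and 12 of 14 microglial markers had no region at all, including Mbp, Cx3cr1 and P2ry12. Defining pericyte genes were also absent or variable: Rgs5, Kcnj8 and Abcc9 had none, and Pdgfrb was called in some libraries.

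**Figure D2:**
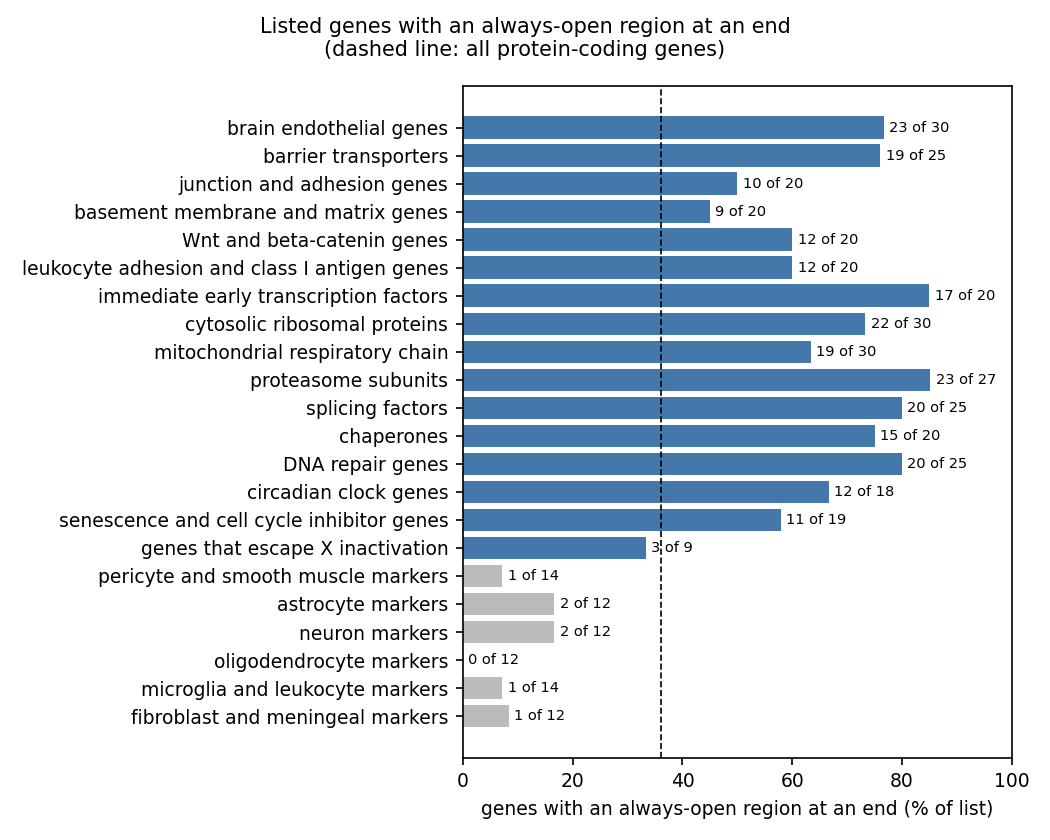
Horizontal bars give the share of the genes of each list, in percent, that have a member at either end, with counts at the bar ends; blue bars are gene groups, grey bars are markers of other cell types, and the dashed line is the 36.1% of all protein-coding genes. Brain endothelial genes (23 of 30) and proteasome subunits (23 of 27) lie far above the line and every grey bar lies below it.

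Within brain endothelial genes, members stood at Cldn5, at Cdh5, which encodes VE-cadherin, at the angiopoietin receptors Tek and Tie1, at the VEGF receptors Kdr and Flt1, and at Eng, Esam, Sox17, Sox18, Nos3 and Robo4. Pecam1, Fli1, Egfl7, Mmrn2 and Vwf had only regions called in some libraries, and Erg and Icam2 had none. Among transporters, the glucose transporter Slc2a1, the large neutral amino acid transporter Slc7a5 with its partner Slc3a2, the lactate transporter Slc16a1 and the organic anion transporters Slco1c1 and Slco1a4 had members. The efflux pump Abcg2 had no region at its ends and Abcb1a a variable one. Of the junction genes, Ocln and Jam2 had members while Tjp1, Jam3 and F11r had variable regions. At the collagen IV genes Col4a1 and Col4a2 the region was variable too. Of the leukocyte and antigen genes, the class I genes H2-D1, H2-K1 and B2m had members. The adhesion genes Icam1 and Vcam1 had variable regions and the selectins Sele and Selp none. Of the clock genes, 12 of 18 had members, with Per1, Nr1d1 and Dbp among them.

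Endothelial and immediate early promoters stood high by pileup and low by fold. The 29 members at brain endothelial genes had a median pileup percentile of 75.1, a median fold percentile of 14.9 and a local background 3.74 times the library's level. At the 20 members of immediate early genes these medians were 82.8, 17.4 and 4.37. Proteasome members showed the opposite order, with 38.6 by pileup, 69.4 by fold and a ratio of 1.14. Respiratory chain members had 31.8, 72.1 and 1.20. Over all members the medians were 51.7, 57.7 and 1.64. Local background is read from the wider neighbourhood of a peak, so a peak in a broad open domain has a lower fold at the same pileup, which is how the fold is built.

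Most single genes of these groups showed this order, with exceptions. Cldn5 was at 99.2 by pileup and 17.6 by fold (medians of 20 libraries), with a background ratio of 6.15. Cdh5 was at 98.2 and 11.7, Slc2a1 at 95.9 and 20.8, and Flt1 at 93.9 and 21.5. Esam, an endothelial adhesion molecule, was at 87.3 by pileup and 1.29 by fold. Tie1 was high by both, at 92.6 and 79.4, and Tek low by both, at 31.6 and 11.3. Among clock genes Per1 was at 99.0 and 13.4, and Nr1d1 at 98.8 and 6.78. Among housekeeping genes Psmb2 was at 32.9 by pileup and 78.3 by fold, and Cox5b, of the terminal oxidase, at 30.8 and 79.2. Some housekeeping promoters were high by both measures: Psmd3 was at 85.4 and 95.4, and Atp5b, of the ATP synthase, at 85.1 and 96.5. The measures of height order the gene groups differently, and both are given below.

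**Figure D3:**
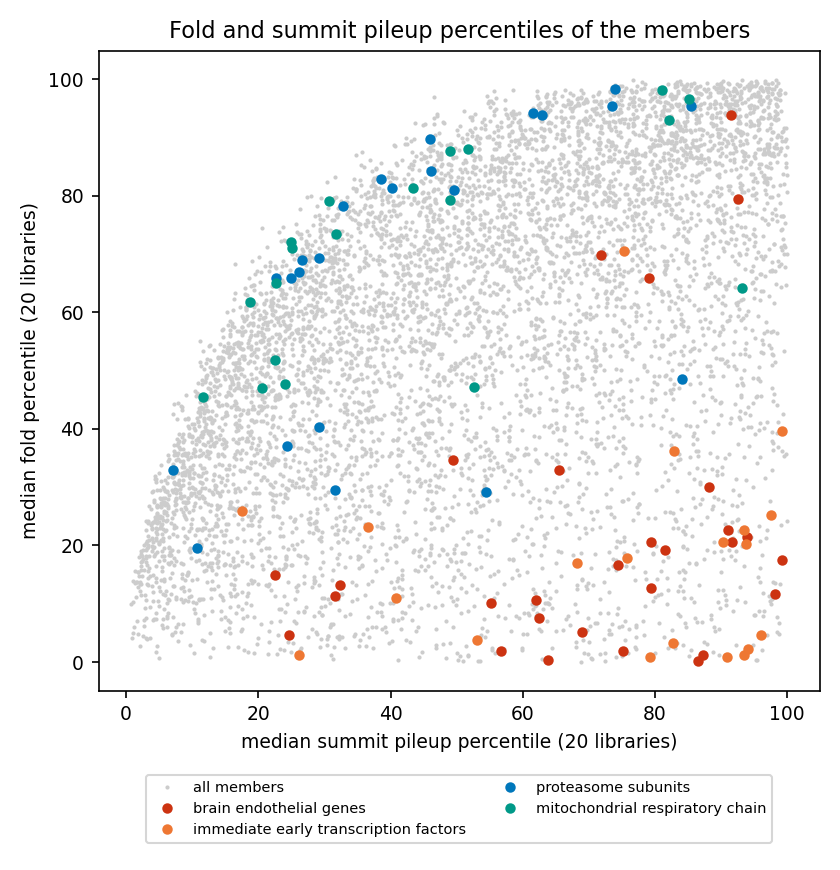
Each grey point is 1 of the 6799 members, with its median summit pileup percentile over 20 libraries on the x axis and its median fold percentile on the y axis; colours mark 4 gene groups. Endothelial and immediate early genes (medians of 75.1 and 82.8 by pileup, 14.9 and 17.4 by fold) lie mostly at the lower right, and proteasome and respiratory chain genes mostly along the upper left edge.

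Few members were called for a change of relative height with age. The calls were not stable to how the libraries fell into sets or to single libraries. The trend of the fold percentile, as normal scores, was tested with limma across all 12717 always-open regions with sex as a covariate and Benjamini-Hochberg adjustment at 0.05. Higher with age were 65 members, against 1.05% called higher among all regions tested, and lower were 39 members, against 0.7%. Leaving out 1 library moved the total of 104 to between 21 (without 18 months replicate 2) and 540 (without 2 months replicate 4). The 65 higher and 39 lower calls are 0.956% and 0.574% of the 6799 members, no larger a share than over all regions. By pileup, 16 members were higher (background 0.558%) and 35 lower (1.04%), a split with the majority on the other side. By the -log10 q of the peaks, 9 were higher (background 0.377%) and 21 lower (0.802%). On log2 fold without ranks 75 were higher (background 1.4%) and 183 lower (3.04%). Higher calls were 62.5% of the calls by fold and 31.4% by pileup. An unadjusted p under 0.05 was reached by 1470 of the 6799 members by fold and 797 by pileup. By chance alone about 1 in 20 would reach it, and the share over all 12717 regions was not computed. All 65 higher and 39 lower members by fold had the same sign by pileup. Called by both were 8 higher members (12.3% of the fold calls and 50% of the pileup calls) and 7 lower (17.9% and 20%).

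The library numbers in the labels fall into 3 runs, called sets here because nothing says that they are batches. Set 1 is made of 3 libraries from the oldest group. In set 2, 5 libraries are 12 months old, 3 are from the oldest group and 1 from the youngest. Set 3 combines 3 of the youngest with all 5 aged 6 months. With set as a factor, 0 members were called by limma for the age trend by fold (633 at an unadjusted p under 0.05; background 0.00786% higher and 0.0157% lower). By pileup 5 were higher (background 0.102%) and 4 lower (0.0629%). Within set 2 alone, 61 members were called higher (background 0.716%) and 6 lower (0.189%). Within set 3, 0 were called in either direction (485 at an unadjusted p under 0.05). Age and set cannot be told apart for much of this range. Members called higher had a median local background ratio of 1.02 and a pileup percentile of 24.7, while those called lower had 2.63 and 82.5; the part of background in the trend was not tested. The library's own background, the first percentile of the local background at its summits, is the measure of depth that the lists allow. Its mean and SD were 2.22 ± 0.855 in the 4 youngest libraries, 2.71 ± 1.18 in the 5 aged 6 months, 3.30 ± 0.259 in the 5 aged 12 months and 2.69 ± 0.799 in the 6 oldest.

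The clearest rise was at the start of H2-Q7 (chromosome 17, 35438745 to 35439715). By fold its percentiles were 5.96, 13.1, 16.3 and 27.2 at 2 months; 8.96, 15.5, 26.3, 46.8 and 60.0 at 6 months; and 25.4, 32.6, 38.8, 55.5 and 76.6 at 12 months. At 18 months they ran from 46.5 through a median of 80.7 to 89.4. All 6 libraries of 18 months were above all 4 of 2 months, and neighbouring ages overlapped. The slope was 1.38 SD of normal score per 12 months by limma (Benjamini-Hochberg adjusted p = 0.000191). By pileup the mean percentile was 2.91 ± 2.98 (SD) over the 4 youngest libraries and 38.3 ± 17.4 over the 6 oldest, with a limma adjusted p of 0.0117. With set as a factor the call ended, with a limma adjusted p of 0.187 by fold and 0.117 by pileup. H2-Q7 belongs to a family of near-identical class I genes, so the reads behind this peak are uncertain. The other class I members H2-D1, H2-K1 and B2m were not called for the trend.

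Other members ranked higher with age were Klhl20, Zbtb40, Rpl26 and Tpx2. Klhl20 was at 40.5, 58.1, 63.9 and 69.1 by fold at 2 months and from 69.3 through a median of 93.1 to 97.6 at 18 months, without overlap (limma adjusted p = 0.00233; by pileup 0.158). Zbtb40, a zinc finger protein, had means of 26.3 ± 12.3 (SD) over the 4 youngest libraries and 65.9 ± 12.4 over the 6 oldest, and was called by both measures (limma adjusted p = 0.00568 by fold and 0.0235 by pileup; with set as a factor 0.689 and 0.650). Rpl26 had means of 31.6 ± 13.9 and 71.7 ± 11.9 by fold, and Tpx2, a spindle assembly factor, 78.2 ± 18.6 and 98.4 ± 2.18. These were called by fold alone (limma adjusted p = 0.0098 and 0.0121; by pileup 0.304 and 0.0995). Higher by both measures were also Bco2, Cetn2, Emp1, Gstm4, Naa10 and Polr3d. By pileup the smallest p belonged to Plscr1, a phospholipid scramblase induced by interferon: 28.2, 29.8, 29.9 and 30.2 at 2 months and from 53.6 through 64.5 to 68.2 at 18 months (limma adjusted p = 0.00477; by fold 0.242). Those groups did not overlap. Clec11a, at a 3' end, was called by pileup alone. So were Cd93 and Cxcl12, genes of endothelial adhesion and chemotaxis (limma adjusted p = 0.0432 and 0.0354 by pileup, 0.205 and 0.758 by fold). Vegfc was called lower by pileup alone (limma adjusted p = 0.0108 by pileup and 0.115 by fold).

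Ranked lower with age by fold were Gm32584, at a 3' end, and Rybp, Plat, Dock1 and Polr2e. For Rybp and Plat the strand was not in the sequence table, so the end at which they lie was not known. Gm32584 (chromosome 5, 36630280 to 36630855) was at the top by fold until 12 months, with no library below 99.5, and ran from 63.9 through a median of 94.6 to 97.3 at 18 months. By pileup it was at 75.2, 77.3, 89.2 and 99.7 at 2 months and from 12.9 through 35.2 to 50.8 at 18 months, without overlap (limma adjusted p = 0.000542 by fold and 9.88e-05 by pileup; with set as a factor 0.187 and 0.100). Its copy number and mapping are uncertain, as for other predicted genes in repeated families (Gm21119 and Gm40469, also at 3' ends) and for Zfp968 of a clustered zinc finger family. Rybp, a subunit of variant Polycomb repressive complexes, was at 43.4, 48.6, 55.6 and 68.2 by fold at 2 months and from 3.32 through 18.4 to 33.3 at 18 months, without overlap (limma adjusted p = 0.00525). By pileup it fell from 66.2 ± 5.78 (SD, n = 4) to 26.4 ± 20.9 (n = 6; limma adjusted p = 0.0169). Its limma adjusted p with set as a factor was 0.223 by fold and 0.0877 by pileup. Plat, the tissue plasminogen activator made by endothelium, fell by fold from 25.6 ± 16.6 to 5.96 ± 2.82 (limma adjusted p = 0.011), while its pileup percentile was 82.9 ± 6.2 and 73.9 ± 5.89 (limma adjusted p = 0.433). Dock1, an activator of Rac, had fold means of 27.4 ± 16.9 in the youngest and 6.96 ± 4.19 in the oldest libraries, and Polr2e, a subunit of RNA polymerases, 45.4 ± 16.2 and 18.4 ± 6.0. By pileup neither was called (limma adjusted p = 0.242 and 0.815), and the means of Polr2e were 56.9 ± 11.1 and 57.0 ± 9.31. Camkk2, Pex5, Zmym2, Gm21119 and Zfp968 were lower by both measures. Lower by pileup alone were, among others, Mtcl1 and Gm40469 (limma adjusted p = 0.0017 and 0.00225 by pileup, 0.274 and 0.639 by fold). Without 2 months replicate 1 the limma adjusted p for Plat was 0.0553.

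**Figure D4:**
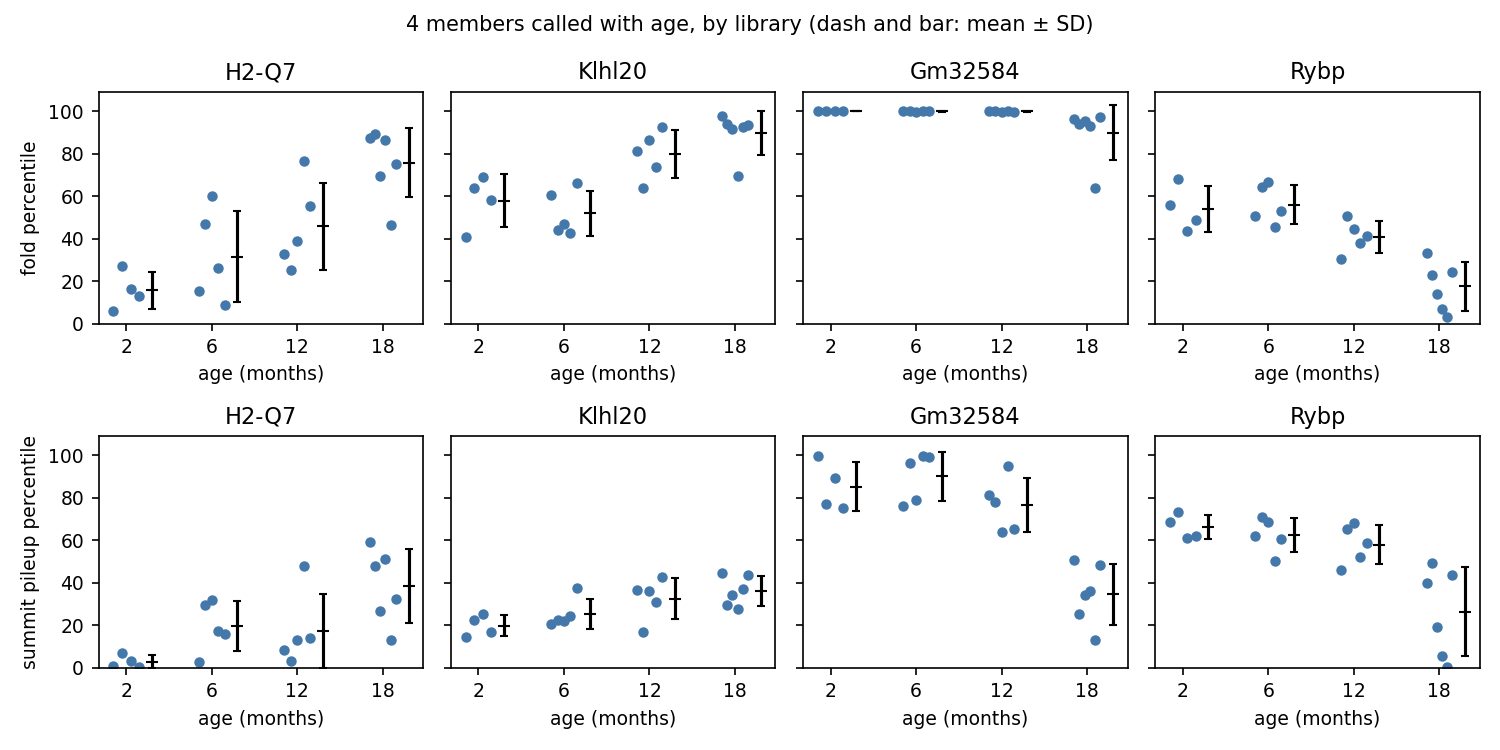
Fold percentile (top row) and summit pileup percentile (bottom row) of 4 members among the 12717 always-open regions, by age in months; points are libraries and the dash with bar is the mean ± SD (n = 4, 5, 5 and 6). H2-Q7 rises from a mean of 15.7 to 75.7 by fold and Rybp falls from 53.9 to 17.5, while Gm32584 stays at the top by fold until 12 months.

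Calls with age were few at barrier and endothelial promoters, as over all members. For comparison, over all 6799 members 65 were called higher and 39 lower by fold and 1470 reached an unadjusted p under 0.05. Of the 29 brain endothelial members, 0 were called higher and 1 lower by fold, Cldn5 (limma adjusted p = 0.0315), and 0 by pileup, where Cldn5 had an adjusted p of 0.781. By fold, 10 of the 29 reached an unadjusted p under 0.05. Their median slope was -0.10 SD of normal score per 12 months by fold and 0.03 by pileup, beside -0.02 and 0.00 over all members. Of the 19 transporter members 1 was called lower by fold, Slc2a1 (limma adjusted p = 0.0455; by pileup 0.0927), with list medians of -0.12 and -0.09. By fold, 6 of the 19 reached an unadjusted p under 0.05. In both lists this share was larger than the 1470 of 6799 over all members. Immediate early members had a median slope of -0.40 by fold and -0.10 by pileup, with 12 of 20 at an unadjusted p under 0.05 by fold and 1 called, Atf3 (limma adjusted p = 0.0469). Proteasome members went the other way by fold, with a median slope of 0.25 and 8 of 23 at an unadjusted p under 0.05, but 0 were called and the pileup median was 0.03. The local background ratio was 4.37 at immediate early and 1.14 at proteasome members, and its part in these slopes was not tested. No member at the listed junction, basement membrane, Wnt, antigen, clock or senescence genes was called with age by either measure. Of the members at other cell type markers, 1 was called, higher by fold: the start of Pigs, which lies at an end of the astrocyte gene Aldoc (limma adjusted p = 0.0232; by pileup 0.334). Cdkn1a and Cdkn2a, common senescence markers, had variable regions and are not members.

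Single age contrasts gave few calls. At 6 against 2 months 14 members were lower (background 0.212%) and 0 higher (0.0157%; 873 at an unadjusted p under 0.05 in either direction, limma). The strongest were Zup1, a deubiquitinase that acts in genome maintenance, and Zbed5. Zup1 was at 56.9, 68.3, 69.3 and 76.7 by fold at 2 months and at 0.3, 4.6, 5.8, 6.6 and 14.6 at 6 months, without overlap (limma adjusted p = 0.00099). Its mean was 47.0 ± 19.2 at 18 months (SD, n = 6). Zbed5 was at 98.7 ± 1.55 in the 4 youngest libraries, 69.8 ± 11.7 in the 5 aged 6 months and 99.3 ± 0.684 in the 6 oldest. Both stayed called by fold with set as a factor (limma adjusted p = 0.00537), where 2 members were higher (background 0.0472%) and 21 lower (0.283%). By pileup 1 member, Zup1, was lower (background 0.0157%) and 0 were higher (0.0315%). Zbed5 was not called by pileup, and with set as a factor neither gene was called by pileup. At 12 against 2 months 0 members were called by fold (624 at an unadjusted p under 0.05, limma; background 0.0% higher and 0.0236% lower) and by pileup 4 were higher (background 0.165%) and 6 lower (0.173%). At 18 against 2 months 6 were higher (background 0.22%) and 2 lower (0.165%): H2-Q7, Dusp12, Klhl20, Tpx2, Ehhadh and Nufip1, and Gm32584 and Rybp. With set as a factor this contrast rested on set 2, with 1 library of 2 months and 3 of 18 months. Calls of that fit are not given, because 1 library gives no spread for its group. It cannot show whether the calls at 18 months hold apart from set. Dusp12 had a mean fold percentile of 55.8 ± 18.2 (SD) in the 4 youngest libraries and 87.2 ± 9.99 in the 6 oldest, but its call was lost when any of 5 libraries was left out. By pileup 12 were higher (background 0.464%) and 24 lower (0.723%), by -log10 q 3 and 15 (0.307% and 0.566%), and on log2 fold 4 and 13 (0.197% and 0.377%). On log2 fold 14 were lower at 6 months (0.204%), and by -log10 q 3 at 12 months (0.11%). These contrasts share the 2-month libraries.

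Between the sexes, the calls lay on X, and fold and pileup called different genes. By fold 0 members were higher in females (background 0.0%; limma) and 6 were lower (0.055%), all on X: Amer1, Ids, Pqbp1, Txlng, Slc35a2 and Cdk16. An unadjusted p under 0.05 was reached by 350 members. Amer1, a regulator of Wnt signalling, ran from 60.5 through a median of 71.4 to 86.1 by fold in males and from 20.9 through 32.7 to 61.7 in females (limma adjusted p = 0.00529). Ids, a lysosomal sulfatase, ran from 40.6 through 51.8 to 72.8 in males and from 10.8 through 20.8 to 36.5 in females, without overlap (limma adjusted p = 0.00529). By pileup the same genes overlapped: Amer1 had means of 50.5 ± 6.13 in males (SD, n = 8) and 43.9 ± 12.2 in females (n = 12; limma adjusted p = 0.954), and Ids 22.8 ± 8.86 and 19.7 ± 8.14 (0.961). With set as a factor 6 members were lower in females by fold (background 0.0708%).

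By pileup 2 members were higher in females (background 0.0786%; limma) and 0 lower (311 at an unadjusted p under 0.05). They were Kdm5c and Eif2s3x, 2 of the 3 members at listed genes that escape X inactivation. Kdm5c ran from 38.4 through a median of 57.4 to 65.3 in males and from 62.9 through 82.6 to 93.5 in females, so the ranges overlapped at their edge (limma adjusted p = 0.0176). Eif2s3x ran from 3.52 through 10.6 to 19.5 in males and from 12.3 through 37.9 to 58.4 in females (limma adjusted p = 0.0342). With set as a factor the limma adjusted p were 0.066 and 0.109, and leaving out 1 library ended 1 or both calls for 13 of the 20 libraries. By fold Kdm5c went the other way, with means of 91.1 ± 6.85 in males (SD, n = 8) and 78.2 ± 12.4 in females (n = 12; limma adjusted p = 0.647), and Eif2s3x was 42.3 ± 14.0 and 43.6 ± 13.5 (limma adjusted p = 0.999). The third escape gene with a member was Utp14a. Kdm6a, Ddx3x and Usp9x had always-open gene ends of 2000 bp or wider and are not members.

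**Figure D5:**
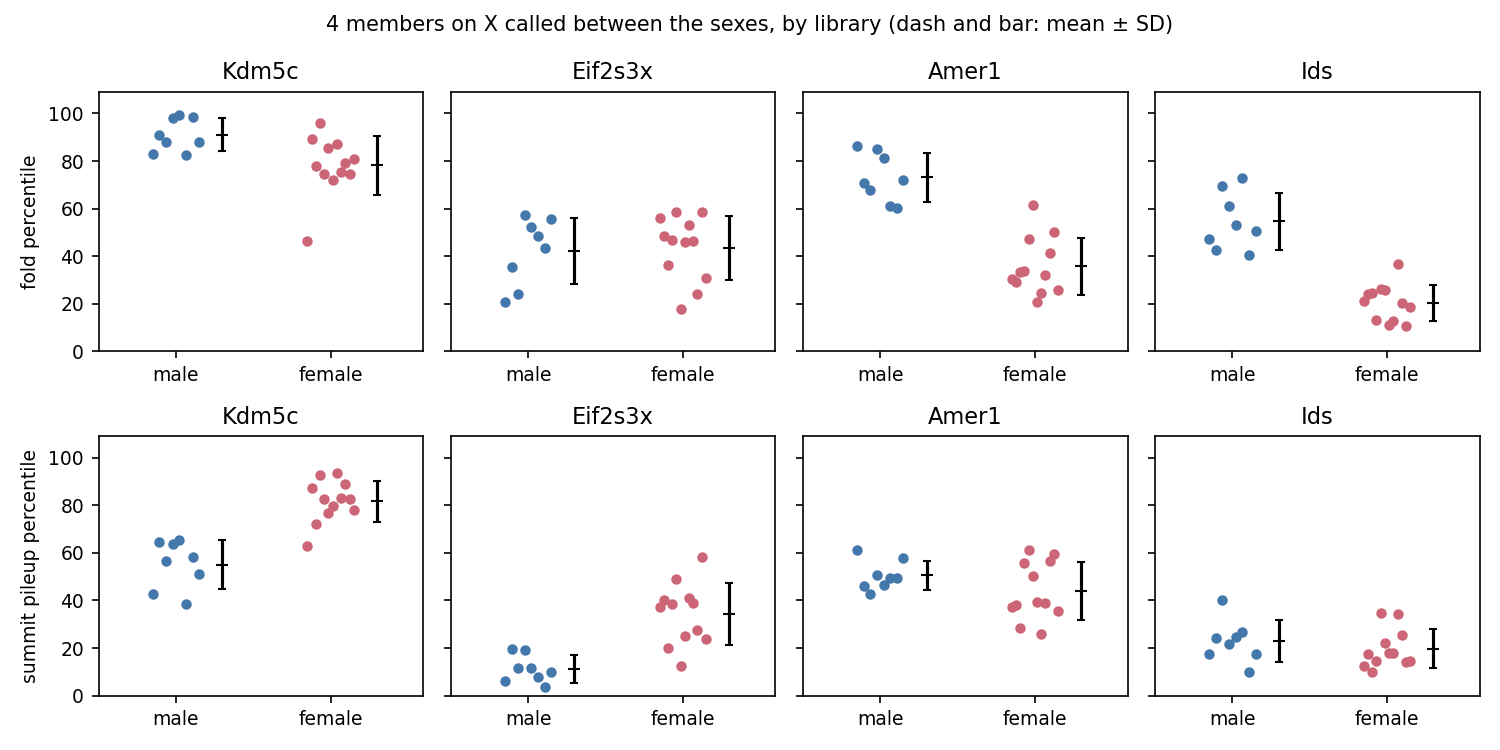
Fold percentile (top row) and summit pileup percentile (bottom row) of 4 members on X among the 12717 always-open regions, by sex; points are libraries and the dash with bar is the mean ± SD (n = 8 males and 12 females). Kdm5c and Eif2s3x are higher in females by pileup (means of 81.7 and 34.3, against 55.1 and 11.2), and Amer1 and Ids are lower in females by fold.

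The background around X members differed between the sexes in the same libraries. The median local background at the 152 X members, divided by that at the 6647 autosomal members, was 0.726 ± 0.0646 in males (SD, n = 8; range 0.638 to 0.856) and 0.911 ± 0.0696 in females (n = 12; range 0.787 to 0.977). In some males the X median sat at the library's own background level, near the lowest value it takes. These were 2 months replicate 1 (1.84), 6 months replicates 4 (3.92) and 5 (2.79), and 12 months replicate 1 (3.27). Their ratios could hardly be lower. The ratio of median summit pileups was 0.852 ± 0.035 in males and 0.875 ± 0.0445 in females, with ranges that overlapped almost fully. The ratio of median folds was 1.07 ± 0.0536 in males and 0.954 ± 0.0303 in females. Over X members the median female minus male estimate was -0.38 SD of normal score by fold and 0.13 by pileup, beside 0.02 and 0.00 on autosomes. The part of the background in the fold differences was not tested. As a check of the labels, 402 to 1946 peaks lay off chromosomes 1 to 19 and X in male libraries and 55 to 121 in female libraries.

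The trend with age differed between the sexes at 1 member by fold, Praf2 on X, which encodes a small membrane protein of the secretory pathway (limma interaction, adjusted p = 0.00361; background 0.00786%). In males its fold percentile was 3.3 in the animal of 2 months and 85.2, 93.8 and 94.0 at 18 months. In females it was 38.0, 40.4 and 55.7 at 2 months and 29.1, 40.0 and 42.8 at 18 months. Male values at 18 months lay above all females, while the male of 2 months lay below every female. With set as a factor the limma adjusted p was 0.0914, and by pileup 0 members were called by limma (361 at an unadjusted p under 0.05; background 0.00786% lower). Only 1 male library of 2 months enters the male trend. By pileup its percentile was 0.409, and the males of 18 months ran from 19.4 to 38.8.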

How the data were processed

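ATAC-seq peak lists of 20 libraries were analysed. Trim Galore 0.4.2, FastQC, Picard 1.115, MACS2 2.1.0 and the build mm10 are named by the submitters' processing notes, with no role or order. For the aligner and any shift of reads for the Tn5 offset, the tool or setting was not given in the sources used here. Each deposited list holds, per peak, the authors' fold (a ratio of pileup to local background), -log10 p, -log10 q and an integer score, in 1 list per library. These per-peak values are the authors' own.

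Lists held 19829 to 39421 peaks. The deposited lists carry no read totals. Summit pileup was recovered by inverting fold and -log10 p (tolerance 0.01), and 99.96% to 100% of values came out whole. Regions, gene ends and start windows used RefSeq tables of GRCm38.p6. Percentiles among 12717 always-open regions were turned into normal scores and fitted with limma 3.58.1 in R 4.3.3, with age in months and sex, or age as a factor, or age by sex, and Benjamini-Hochberg adjustment over all 12717 regions at 0.05. The fit was also run on simulated data with independent noise and no library sets. That run cannot show whether sets produce age calls.

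By rule, genes named were the 5 highest, lowest and most variable members and the called members of smallest p in each contrast and direction. To these came the first genes of each list. Pileup-called genes, other listed genes given as examples, Praf2 and the highest pileups and backgrounds were chosen after their values were seen. The members and gene lists were chosen with earlier results of these data known. Replicates were numbered in accession order and pair nothing. Alternatives covered the ranking measure, library set, background, stricter peaks, member rules and leaving out each library. Combining library set with pileup or background, and leaving out libraries by pileup, were chosen after seeing the data. Some genes that the naming rule selects are not reported here.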

Additional observations from a re-analysis of the deposited data

Results flagged for a closer look

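In 56 of 472 tests of a group of 4 to 6 libraries, 1 library lay far from the others of its age by Dixon's 95% limit, where chance alone flags about 1 in 20 groups. Genes were tested in several groups and the groups share libraries. Values are fold percentiles unless stated.

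The library of 6 months replicate 3, which had the lowest background of all (0.733), stood apart most often. Its values were 99.5 at Gm32584, 89.1 at Golph3l, 92.2 at Gm6712, 92.5 at Bcat2, 83.5 at Psma2 and 70.6 at Xpc, each below the other libraries of 6 months. It lay above them at Klf13 (1.25), Cfl1 (2.09), Bsg (3.77), Ndufaf6 (52.0), Clec11a (33.0), Emp1 (49.3), Eng (63.9), Hspg2 (24.1) and Cdkn2b (83.1). The median over members was also highest there, at 61.8 by fold against 55.0 to 56.6 in the other 4 libraries, and at 58.4 by pileup against 50.2 to 52.2.

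In 12 months replicate 4 some endothelial genes were higher than in the others of that age: Cldn5 was at 29.2 against at most 12.7, Cdh5 at 30.2 against 6.97, and Kdr at 31.7 against 14.8. The endothelial genes Tek, Tie1, Flt1, Eng and Esam were not flagged in that library. There Slc7a5 was at 12.4, Ocln at 13.0, Fosl1 at 15.8, Junb at 5.48 and the Id3 members at 4.81 and 1.33, all higher, while Golph3l (98.2), Slc3a2 (71.4) and Hspd1 (75.5) were lower. The library of 2 months replicate 1, the only male of that age, was higher at Amer1 (86.1), Ids (47.2), Clock (38.4) and Id3 (0.523) and lower at Bcat2 (89.5) and Ndufaf6 (3.29).

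In 18 months replicate 3, Gm6712 (98.5), Bcat2 (96.3) and Lamb2 (75.1) were lower and Bsg (1.40) and Midn (0.649) higher. Other libraries of 18 months stood apart at Sel1l (98.0) and Mtcl1 (16.3) in replicate 2, Klhl20 (69.3) and Tpx2 (94.3) in replicate 4, and Gm32584 (63.9) and Zbtb40 (89.9) in replicate 5. At 2 months these were Ier5 (84.0) in replicate 2, Srp68 (26.0) in replicate 3, and Gm32584 (99.9) and Srsf3 (47.5) in replicate 4. At 6 months they were Gm40469 (51.6), Cldn5 (12.8) and Ndufa2 (79.6) in replicate 1, Eya3 (72.6) in replicate 4 and Tpx2 (9.61) in replicate 5. At 12 months Hspg2 was at 17.2 in replicate 5.

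At Praf2 the age trend differed between males and females in the limma interaction (Benjamini-Hochberg adjusted p = 0.00361), with the values given above.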

How the results depend on the processing

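Counts are members called by limma. For the age trend the count of 104 became 30 by -log10 q, 51 by pileup, 258 on log2 fold, 0 with library set, 5 without set 1, 67 within set 2, 0 within set 3, 9 by pileup with set and 1 with set and background. Leaving out 1 library gave 21 (18 months replicate 2) to 540 (2 months replicate 4), with 23 without 18 months replicate 5, 28 without 18 months replicate 3 or 2 months replicate 1, 42 without 18 months replicate 6, 49 without 6 months replicate 4 or 5, 62 without 18 months replicate 1, 69 without 6 months replicate 2 and 162 without 12 months replicate 4. By pileup the 51 became 19 without set 1 and 22 (2 months replicate 1) to 87 (2 months replicate 4). At 6 against 2 months the 14 became 1 by -log10 q or pileup, 7 among members only or without set 1, 23 with set, 0 by pileup with set, 32 with set and background, and 2 (without 6 months replicate 2) to 58 (without 6 months replicate 3). At 12 against 2 months the 0 became 3 by -log10 q, 10 by pileup and 0 to 5 (without 2 months replicate 4). At 18 against 2 months the 8 became 18 by -log10 q, 36 by pileup, 2 among members only, 17 on log2 fold, 15 with set, 3 without set 1, 33 by pileup with set, 43 with set and background, and 3 (18 months replicate 2 or 5 left out) to 94 (2 months replicate 4 left out). Between the sexes the 6 became 0 by -log10 q, 2 by pileup, 12 among members only, 2 without set 1, 0 by pileup with set and 6 to 9 over single libraries left out. The 2 by pileup became 0 without set 1 and 0 (2 months replicate 1 or 18 months replicate 4 left out) to 2. For age by sex the 1 became 0 by -log10 q, by pileup, with set, with -log10 q of at least 5, without set 1, by pileup with set and with set and background, and 1 to 3 over libraries left out. The 6799 members became 2320 when peaks had to cover 50% of a region in each library. Reversed slopes, with adjusted p, were found within set 3 for Klhl20 (0.890), Rpl26 (0.899), Tpx2 (0.756), Rybp (0.948) and Plat (0.999), and by pileup with set for Polr2e (0.926). Without 2 months replicate 1 Dock1 had an adjusted p of 0.0541. The causes were not tested. No paired analysis was possible because replicate numbers follow accession order. The lists carry no read totals, so depth limits low peaks to an unknown degree.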
